A study of Danio rerio with 340 samples.

Results

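Valproic acid at 20 µM was examined in larvae of the zebrafish strain WIK, a laboratory line. The comparison holds the 8 WIK larvae at 20 µM and the 8 WIK larvae at 0 µM of the same exposure, 16 of the 340 larvae of the study, chosen by strain, compound and dose in the sample titles and by no measured value. Each sample was the RNA of 1 whole larva at 5 days post-fertilization (dpf). It had been in the compound from 5–6 hours post-fertilization (hpf), in a well of a 24-well plate with no medium change, and was picked as representative after its morphology had been scored. The same exposure also holds 8 WIK larvae each at 1 and 5 µM and the same 4 doses in AB, TU, RW and PET, 160 larvae in all. No larva of these groups carries a transgene or a targeted allele in the labels. The number of biological replicates is given as 1, so that the 8 larvae of a group show the spread within 1 exposure, and strain and clutch cannot be told apart.

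Valproic acid is an antiepileptic drug that inhibits histone deacetylases, the enzymes that remove acetyl groups from histones, and exposure in the womb is known to cause neural tube and skeletal malformations. At 5 dpf a zebrafish larva has hatched, swims and sees, and its pancreas, gut and liver become functional as the yolk runs out. The hatching gland, which secretes the enzymes that open the egg envelope, is a transient tissue that has largely gone by this stage. Since whole larvae were measured, fewer cells of a type and less RNA per cell cannot be told apart in any result below.

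The larvae at 20 µM gave fewer counts than those at 0 µM, by 1.92-fold in the mean. Totals ran from 3132762 to 5486648 counts at 0 µM and from 614766 to 4580190 at 20 µM, where all but larva 1 lay below every control, and the difference in mean log10 total was -0.342 (exact permutation test over 12870 arrangements, two-sided, p = 0.00186, 8 larvae a group). The larvae at 1 µM lay between 2474267 and 5662436 counts, and those at 5 µM between 189169 and 4198319. Genes with at least 1 count numbered 19839 ± 1615 at 20 µM and 20936 ± 595 at 0 µM (mean ± SD, n = 8, exact permutation p = 0.0797), and once each larva was thinned to 500000 counts the difference had the other sign, 17384 against 16903 (exact permutation p = 0.0943). Without larva 1 at 20 µM the unthinned difference was -1408 genes (exact permutation p = 0.00995). Leaving out each of the 16 larvae in turn gave -1408 to -633 genes (exact permutation p from 0.00995 to 0.158).

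**Figure D1:**
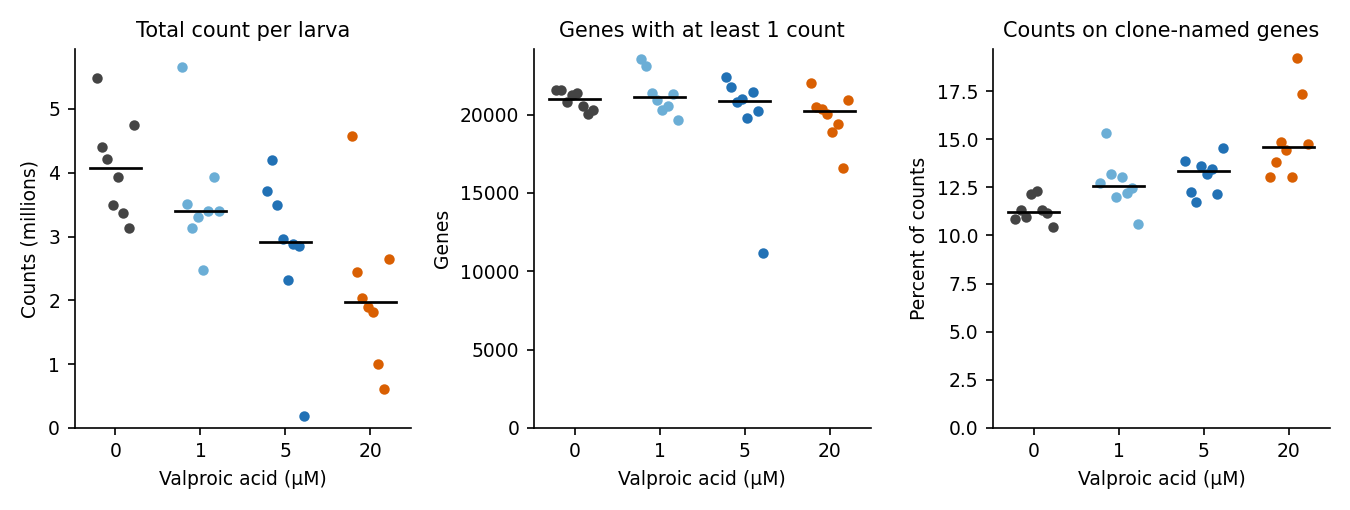
Total count (in units of 1e+06 counts), number of genes with at least 1 count, and percent of counts on clone-named genes, for each of the 32 WIK larvae (points) at 0, 1, 5 and 20 µM of valproic acid, with the median of each group as a bar. Totals at 20 µM were below all controls in 7 of 8 larvae, and the share of clone-named genes was above all controls in each of the 8.

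Clone-named genes (prefixes such as si: and zgc:) took 10.5% to 12.3% of the counts at 0 µM and 13.0% to 19.2% at 20 µM. These ranges do not overlap, and some of the genes, such as zgc:92137, also have a gene name. At 1 and 5 µM the shares ran from 10.6% to 15.3% and from 11.7% to 14.6%, ranges that overlap those of both 0 and 20 µM. Transcripts of the mitochondrial genome took 7.37% to 9.70% of the counts at 0 µM and 5.48% to 9.44% at 20 µM, ranges that overlap. Larvae 6 and 7 at 20 µM stood apart, with 1004173 and 614766 counts, the highest clone-named shares (19.2% and 17.3%) and the lowest mitochondrial shares (5.79% and 5.48%). The part of depth in the differences below was not tested beyond the fits with depth as a covariate and without shallow larvae, whose values are given beside named genes that they leave uncalled.

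Of 16613 genes tested, 3074 (18.5%) differed between 20 and 0 µM (edgeR's quasi-likelihood test over the 32 WIK larvae, Benjamini-Hochberg adjusted p under 0.05, two-sided), 1252 higher (7.54%) and 1822 lower (11.0%). The decreases were the larger ones. A log2 fold change over 1 was found for 469 genes that rose, and one under -1 for 1027 that fell, while a change beyond 2 in size was found for 48 and 296. In 63 genes (0.379%) all 8 larvae at 20 µM lay above all 8 controls, and in 517 (3.11%) they lay below. Of the 1104 tested genes that averaged 100 or more CPM (counts per 1e+06 counts of a larva), 106 rose and 477 fell. Clone-named genes, here by a slightly different set of prefixes, made up 43.1% of the genes that rose, 13.2% of those that fell and 22.5% of those tested.

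The balance of the directions depended on the scaling. TMM, the scaling used here, put the median log2 fold change of all genes at 0.00, and the size factors of DESeq2 put it at 0.08 with 1632 genes higher and 1605 lower. Scaling by total count alone moved it to 0.27 and gave 2756 higher and 1150 lower, so that a small change can take either sign with the scaling. With the log10 total of each larva as a covariate 400 genes were higher and 965 lower, of which 330 and 921 were among the calls above, and without the 3 WIK larvae under 0.5 times the median total 698 were higher and 1479 lower, of which 613 and 1394 were among them. Of the calls above 988 higher and 1455 lower genes were tested again after thinning to 500000 counts. Of these, 872 and 1108 were called in the same direction.

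**Figure D2:**
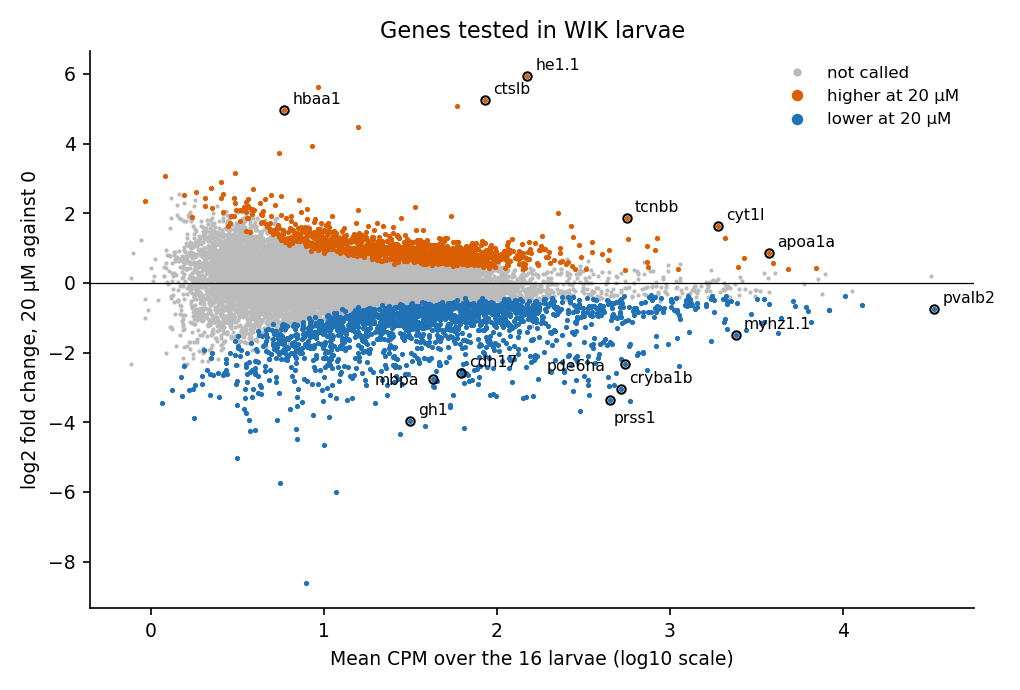
log2 fold change at 20 µM against 0 in WIK larvae (y axis) against the log10 mean CPM over the 16 larvae (x axis), 1 point for each of 16613 tested genes, with genes called higher in orange and lower in blue. Among abundant genes (mean of at least 100 CPM) 477 were called lower and 106 higher.

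Levels below are TMM-scaled CPM, and each set of 3 values is the lowest, the median and the highest of the 8 larvae of a group. Fold changes are those of the fit, with the log2 fold change ± its SE and edgeR's adjusted p. The SE, also in the figures, was derived as the size of the log2 fold change divided by the square root of the F statistic of edgeR's test. Counts of list members are read against the 7.54% higher and 11.0% lower among all genes tested. Counts of members without overlap are read against the 0.379% higher and 3.11% lower without overlap among all genes tested. Counts and medians under another setting are read against the calls of that setting over all genes. These were 2756 higher and 1150 lower (median 0.27) under total-count scaling, and 400 and 965 (median 0.12) with the depth covariate. Without shallow larvae they were 698 and 1479 (median 0.04). Where families hold near-identical copies (crystallins, globins, hatching enzymes, trypsins, keratins), reads may have been shared or lost between copies, since the counting step is not described in the sources used here.

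The digestive enzymes of the exocrine pancreas, which break down protein, fat and starch in the gut, had the lowest median of the 38 lists. Of 33 tested genes of this list 27 fell and none rose, with a median log2 fold change of -2.76 (0.00 over all genes). The trypsin gene prss1 stood at 266, 768 and 1593 CPM at 0 µM and at 38.3, 80.5 and 114 CPM at 20 µM, 10.3-fold lower (-3.37 ± 0.40, adjusted p = 1.8e-08). All 8 exposed larvae lay below all controls, although the controls themselves spanned a wide range. The chymotrypsinogen gene zgc:112160, also named ctrb.3, went from 194, 974 and 2428 to 37.5, 91.8 and 188 CPM (-3.39 ± 0.47), and the amylase gene zgc:92137 (amy2al2) from 42.9, 81.4 and 243 to 0, 7.09 and 11.9 CPM (-4.17 ± 0.47, 18-fold lower). The carboxypeptidase gene cpa4 was 9.05-fold lower, again with no overlap. A further trypsin gene prss59.2, the most abundant of the list, was 5.20-fold lower (624, 1643 and 3752 against 143, 340 and 654 CPM), with 7 of 8 larvae below all controls. Also lower were pdia2, which encodes a protein disulfide isomerase of the pancreas (-1.81 ± 0.29), and the elastase gene ela2l, for which only 1 larva was below all controls because the controls ran from 64.3 to 1278 CPM (-2.79 ± 0.56, adjusted p = 2.6e-04). The count of the list was 26 to 27 under total-count scaling, with the depth covariate and without shallow larvae, and 15 by limma-voom with quality weights (median -2.01).

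Of 17 tested genes of the endocrine pancreas, which makes hormones such as insulin, 5 fell (29.4%) and 1 rose (5.88%), with a median of 0.08. The shares over all genes tested were 11.0% lower and 7.54% higher. The insulin gene ins was 2.17-fold lower (34.2, 44.7 and 83.9 against 8.12, 19.1 and 41.2 CPM, adjusted p = 0.0017), with 6 of 8 larvae below all controls. Genes of secretory granules that are shared with neurons fell as well: pcsk1nl, which encodes the precursor of proSAAS peptides, by 1.34 ± 0.21 on the log2 scale, scg3 by 0.93 ± 0.19 and chga by 0.83 ± 0.24, the last not called under total-count scaling (-0.57, adjusted p = 0.071). The transcription factor gene neurod1, the most abundant of the list, had a log2 fold change of 0.24 ± 0.18 (adjusted p = 0.38).

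Genes of the intestinal lining fell in 19 of 40 tested members and 1 rose (median -0.95), and in 10 of the 40 all 8 larvae lay below all controls. The cadherin gene cdh17 of the gut epithelium went from 70.5, 111 and 138 to 8.29, 17.3 and 26.9 CPM, 6.05-fold lower (-2.60 ± 0.21, adjusted p = 1.8e-12), with all 8 larvae below all controls. The brush border peptidase gene anpepb (4.12-fold), the mucin gene muc5.1 (4.38-fold) and rbp2a, which encodes a retinol-binding protein of enterocytes (4.03-fold), were lower with no overlap either. The meprin gene mep1a.2 was at 5.45, 13.5 and 17.9 CPM at 0 µM and at 0, 0.669 and 1.62 CPM at 20 µM, with no count in 3 larvae (-4.18 ± 0.50). The largest decreases among the genes that did not overlap also held mlnl, the gene of a motilin-like gut peptide (-3.93 ± 0.62), the organic anion transporter gene slc22a7b.1 (-4.25 ± 0.70), cuzd1.2 (-3.94 ± 0.67) and the nuclear receptor gene nr5a5 (-3.84 ± 0.47). The cathepsin L gene ctsl.1 dropped from a median of 546 to 39.2 CPM (-3.68 ± 0.42).

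Genes of the list of liver plasma proteins, which also holds liver enzymes, were split, with 9 of 54 tested lower and 5 higher (median 0.04). Those that fell included tat, which encodes tyrosine aminotransferase, at 26.9, 47.7 and 89.5 against 2.76, 8.12 and 18.8 CPM with no overlap (-2.62 ± 0.33). They also included pah, the gene of phenylalanine hydroxylase (-1.25 ± 0.22), rbp4, which carries retinol in plasma (-0.68 ± 0.14), and the transthyretin gene ttr (-2.36 ± 0.52), for which only 2 larvae were below all controls. The hepatocyte gene fabp10a was 3.35-fold lower (152, 429 and 1466 against 22.3, 154 and 366 CPM), and the call was lost with the depth covariate (-1.26, adjusted p = 0.13). Those that rose included the complement genes c4b (+1.52 ± 0.34) and c3b.1 (+1.17 ± 0.33) and the ceruloplasmin gene cp (+0.94 ± 0.29), which were named after their values were seen. With the depth covariate the adjusted p of these genes was 0.098, 0.17 and 0.16, and 5 genes of the list remained lower and 2 higher. Without shallow larvae c3b.1 was not called (adjusted p = 0.0503). The transferrin gene tfa was at 168, 1258 and 2655 against 508, 888 and 1673 CPM (adjusted p = 0.47).

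Genes of lipid transport also went both ways (24 tested, 5 lower, 1 higher, median -0.24, and 0.02 under total-count scaling). apoa1a, which encodes the main protein of high-density lipoprotein, was among the 106 genes of at least 100 CPM that rose, from 1885, 2719 and 3474 to 3770, 4327 and 6259 CPM with no overlap (1.81-fold, +0.86 ± 0.18). apoa4b.2 was 3.1-fold lower with no overlap and apof 1.92-fold lower. apoa4b.1 had -0.64 ± 0.17, which was not called with the covariate (adjusted p = 0.18), and apoa2 had 0.28 ± 0.21 (adjusted p = 0.38).

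**Figure D3:**
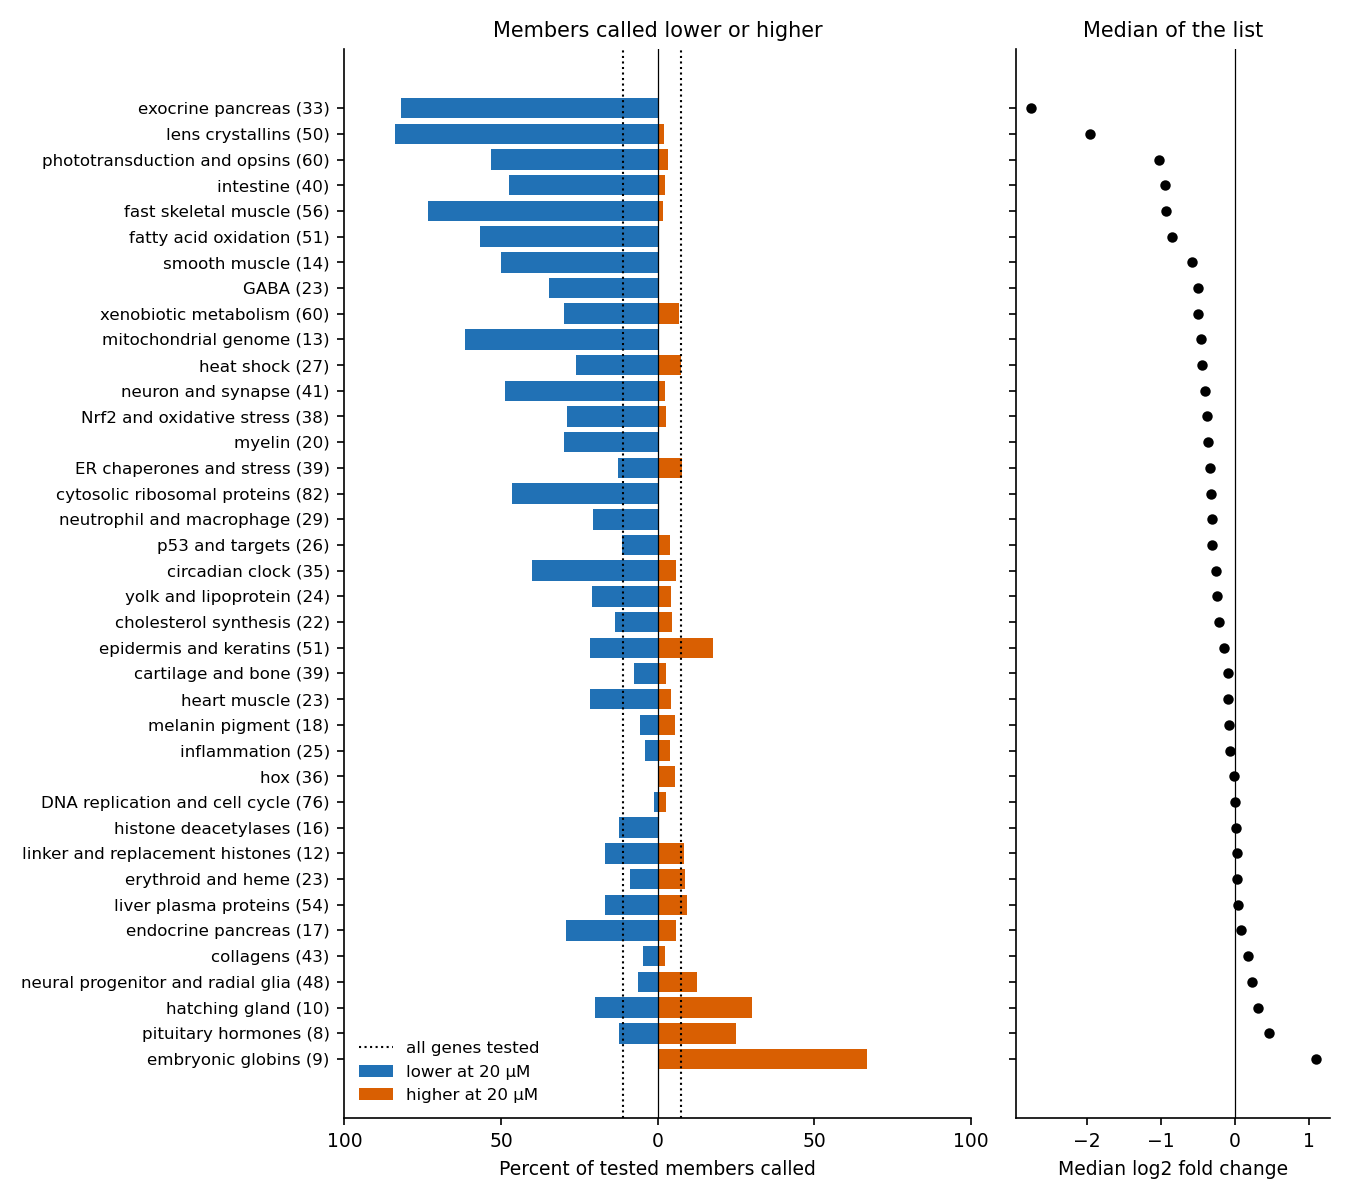
Percent of the tested members of each of 38 gene lists called lower (blue, to the left) or higher (orange, to the right) at 20 µM in WIK larvae, with the number tested in brackets and the percents over all genes as dotted lines, and the median log2 fold change of each list on the right. Exocrine pancreas, lens crystallins and fast skeletal muscle had over 70% of their members lower, and the embryonic globins were the only list with over 50% higher.

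Most lens and photoreceptor genes tested fell at 20 µM. Of 50 tested lens genes, mostly crystallins, the refractive proteins of the lens, 42 fell and 1 rose (median -1.97), and in 26 of the 50 all 8 larvae lay below all controls. cryba1b went from 579, 936 and 1218 to 64.3, 70.1 and 371 CPM, 8.34-fold lower (-3.06 ± 0.29, adjusted p = 6.7e-11). The value of 371 belonged to larva 1, the deepest at 20 µM, and it lay outside the close range of the other larvae but below the controls. cryba4 (6.48-fold), cryba2a (4.74-fold) and crygn2 (4.58-fold) showed no overlap, and neither did crygm2d17, the most abundant of the list (684, 1293 and 2084 against 201, 343 and 666 CPM).

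Of 60 tested genes of opsins and the phototransduction cascade, by which photoreceptors turn light into a signal, 32 fell and 2 rose (median -1.02), with no overlap in 21. pde6ha, which encodes a subunit of the cone phosphodiesterase, went from 705, 971 and 1055 to 47.5, 184 and 331 CPM (5.06-fold lower, -2.34 ± 0.25, adjusted p = 1.1e-09). The retinoid-binding gene rbp3 (5.30-fold), the cone opsin kinase gene grk7a (4.97-fold) and the green cone opsin gene opn1mw1 (809, 1165 and 1664 against 76.3, 289 and 449 CPM, 3.92-fold) were lower without overlap. The red cone opsin gene opn1lw2 did not pass the threshold, with 1430, 1894 and 2452 against 921, 1526 and 1745 CPM (-0.39 ± 0.15, adjusted p = 0.059), and it was called lower on leaving out single larvae (adjusted p of 0.042 without control 4).

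Myelin, the sheath that oligodendrocytes and Schwann cells wrap around axons, was marked by 6 genes that fell. Of 20 tested genes 6 fell and none rose (median -0.37), 5 of them without overlap. plp1b was at 27.7, 36.1 and 50.9 CPM at 0 µM and at 1.35, 5.26 and 9.19 at 20 µM (6.87-fold lower, -2.78 ± 0.30, adjusted p = 1.5e-09). The myelin basic protein genes mbpa (6.74-fold) and mbpb (3.09-fold) and the claudin gene cldnk (10.5-fold, 12, 17.0 and 29.1 against 0, 1.59 and 2.81 CPM) were lower in all 8 larvae. The peripheral myelin gene pmp22b, the most abundant of the list, was at 94.8, 146 and 176 against 85.6, 127 and 223 CPM (adjusted p = 0.85).

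Among markers of neurons and synapses 20 of 41 tested fell and 1 rose (median -0.40), and with the depth covariate 13 fell. The genes that fell included grin1a, which encodes a subunit of the NMDA receptor (51.6, 92.3 and 130 against 22.8, 27.3 and 31.8 CPM, -1.67 ± 0.20). Further ones were atp1a3b, the neuronal sodium pump (-2.19 ± 0.31), calm1b, a calmodulin (-1.85 ± 0.28), and the vesicle protein gene syt1a (-1.21 ± 0.18). All but calm1b showed no overlap. Of 23 tested genes of GABA signalling, the inhibitory transmission on which antiepileptic drugs act, 8 fell and none rose (median -0.51): slc32a1, which loads GABA into vesicles, was at 28.2, 31.7 and 52.5 against 4.06, 13.4 and 19.8 CPM (-1.4 ± 0.27). The receptor subunit genes gabrb2a and gabra6a had -1.64 ± 0.29 and -1.72 ± 0.32, and the transporter gene slc6a1b had -0.69 ± 0.15. The most abundant members of both lists, tubb5 (adjusted p = 0.63) and gabarapb (-0.53 ± 0.22, adjusted p = 0.093), were not called, though gabarapb was called lower without control 7 (-0.65, adjusted p = 0.031).

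Genes of neural progenitors and radial glia, the dividing cells from which neurons arise, were called higher in 12.5% and lower in 6.25%. The shares over all genes tested were 7.54% and 11.0%. Of the 48 tested genes of the list 6 rose and 3 fell, with a median of 0.23. Under total-count scaling, where the median over all genes was 0.27, it was 0.48 with 17 higher. her4.1, a target of Notch signalling, was at 16.3, 20.9 and 26.6 CPM at 0 µM and at 13.8, 37.4 and 62.1 at 20 µM (+0.92 ± 0.26, adjusted p = 0.0097), with 6 larvae above and 1 below all controls. The other 5 that rose, named after their values were seen, were sox11a (+0.67), ascl1b (+0.83), the Notch receptor genes notch1a (+1.31) and notch3 (+0.63) and the Notch ligand gene dla (+0.80), with adjusted p between 0.026 and 0.049. Of these, notch1a, notch3 and dla were not called without shallow larvae (adjusted p = 0.084, 0.15 and 0.089). With the depth covariate these 3 were not called either (adjusted p = 0.15, 0.16 and 0.068). Those that fell were stmn1b (-0.76 ± 0.15, with no overlap), the glial glutamate transporter gene slc1a2b (-0.81 ± 0.20), and the glutamine synthetase gene glula (-0.61 ± 0.20), of which slc1a2b and glula were not called with the covariate (adjusted p = 0.076 and 0.39). Without shallow larvae glula was not called either (adjusted p = 0.067).

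Among the genes of histone deacetylases, some of which valproic acid inhibits, and of the sirtuins, deacylases that need NAD, 2 of 16 tested fell and none rose (median 0.01). The share that fell, 12.5%, was near the 11.0% over all genes tested. hdac9b went from 8.16, 20.0 and 32.1 to 0.468, 5.62 and 13.0 CPM (-1.76 ± 0.36), and the mitochondrial deacylase gene sirt5 from a median of 9.97 to 5.05 CPM (-1.21 ± 0.35, not called under total-count scaling, adjusted p = 0.054). hdac4 (0, 0.282 and 2.67 against 0, 1.59 and 8.94 CPM, adjusted p = 0.073) and sirt1 (35.5, 41.4 and 107 against 46.9, 83.3 and 111 CPM, adjusted p = 0.054) were not called. Under total-count scaling both were called higher (adjusted p = 0.038 and 0.0086). hdac4 was also called higher without control 4 (+2.65, adjusted p = 0.022), and sirt1 on leaving out any of 5 larvae, with the lowest adjusted p, 0.0053, without control 5. Of 12 linker and replacement histone genes, h1m was called higher (+0.39) and macroh2a2 (-0.54) and h3f3c (-0.37) lower, and none of the 3 calls stood with the depth covariate or without shallow larvae (adjusted p of 0.12 to 0.38).

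Contractile genes of fast skeletal muscle were mostly lower. Of 56 tested 41 fell and 1 rose (median -0.94), and in 30 all 8 larvae lay below all controls. The myosin heavy chain gene myhz1.1 went from 2781, 3742 and 4010 to 932, 1276 and 1432 CPM (2.85-fold lower, -1.51 ± 0.14, adjusted p = 7.5e-11), and the calcium pump gene atp2a1l from 771, 1067 and 1349 to 166, 240 and 330 CPM (4.21-fold, -2.07 ± 0.18). myhz1.2 (2.87-fold) and the titin gene ttn.2 (3.45-fold) showed no overlap. pvalb2, a parvalbumin and the most abundant member, was 1.67-fold lower (30462, 41212 and 58376 against 16480, 25274 and 31654 CPM), with 7 of 8 larvae below all controls. The creatine kinase gene ckma (3.19-fold) and the myosin light chain gene mylpfa (2.7-fold), both singled out after their values were seen, were lower as well. The list counted 37 lower genes with the depth covariate and under total-count scaling.

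Smooth muscle genes fell in 7 of 14 (none rose, median -0.58). acta2, smooth muscle actin, was at 119, 145 and 237 against 6.90, 28.6 and 56.7 CPM (5.47-fold lower, -2.45 ± 0.28), the desmin gene desmb was 3.67-fold lower with no overlap, and myh11a, smooth muscle myosin, was 2.71-fold lower with 3 larvae below all controls. myl9a had -0.87 ± 0.18, and the broadly expressed tropomyosin gene tpm1 had 0.18 ± 0.11 (adjusted p = 0.27). Of 23 heart genes 5 fell and 1 rose (median -0.09, and 0.19 under total-count scaling). myl7, the cardiac myosin light chain, went from 25.8, 51.7 and 72.2 to 4.06, 12.1 and 19.2 CPM (4.05-fold, -2.02 ± 0.28), without overlap. myh7l had -1.57 ± 0.39, which lost its call with the covariate (adjusted p = 0.096), acta1a had -0.97 ± 0.21 and the natriuretic peptide gene nppc had -2.29 ± 0.46.

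Genes of the fatty acid oxidation list fell in 29 of 51 tested, and none rose (median -0.85), with 15 lower with the depth covariate. The list also holds regulators, uncoupling proteins and fatty acid binding proteins, and the genes named here are of these kinds. pdk2b, a kinase that turns glucose oxidation down when fat is burned, was at 43.2, 101 and 307 against 5.92, 15.6 and 31.3 CPM (7.38-fold lower, -2.88 ± 0.36, adjusted p = 4.1e-08), with all 8 larvae below all controls. pdk2a (2.42-fold) and the uncoupling protein genes ucp3 (6.27-fold) and ucp1 (2.4-fold) did not overlap either. fabp1b.1, a fatty acid binding protein and the most abundant of the list, spread widely at both doses (64.7, 489 and 1632 against 414, 676 and 1388 CPM, adjusted p = 0.69). Of the 13 protein-coding genes of the mitochondrial genome 8 fell (median -0.46), among them mt-cyb (6505, 7624 and 8520 against 3077, 4999 and 5432 CPM, -0.68 ± 0.12), mt-atp6 (-0.78 ± 0.15) and mt-co1 (-0.63 ± 0.14), and 4 fell with the covariate or under total-count scaling. Of 82 cytosolic ribosomal protein genes 38 fell and none rose (median -0.33), with rps3a and rps9 both at -0.83 and without overlap. This count was 15 with the covariate, and 15 lower and 1 higher under total-count scaling (median -0.06), and the most abundant of them, rpl38, had -0.03 ± 0.20.

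The 3 largest increases without overlap were of hatching gland genes. Of 10 tested genes of the hatching gland list 3 rose and 2 fell (median 0.31). Those that fell included npsn, a gene of neutrophils. The hatching enzyme gene he1.1 was at 2.09, 4.69 and 7.64 CPM at 0 µM and at 31.7, 290 and 681 CPM at 20 µM, 61.3-fold higher (+5.94 ± 0.41, adjusted p = 1.9e-14). he1.2 (1.18, 3.5 and 7.04 against 15.4, 88.6 and 261 CPM, 33.8-fold) and ctslb, a cathepsin L gene of the hatching gland (1.84, 3.86 and 8.86 against 13.8, 125 and 637 CPM, 38.1-fold), also rose in all 8 larvae with no overlap. The spread among larvae at 20 µM was wide for each. npsn, which encodes an astacin protease of neutrophils, fell (-1.03 ± 0.28, adjusted p = 0.054 with the covariate), and cd63, the most abundant of the list, was at 295, 417 and 534 against 280, 367 and 449 CPM (adjusted p = 0.62).

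Embryonic globins, the haemoglobin chains of the first red cells, rose in 6 of 9 tested and none fell (median 1.09). hbae1.1 went from 85.6, 213 and 317 to 360, 495 and 676 CPM (2.27-fold higher, +1.19 ± 0.20) with no overlap, hbbe2 was 2.12-fold higher, hbae5 4.55-fold higher, and hbbe3, at 0, 0.412 and 3.98 CPM in the controls, 15.3-fold higher (2.23, 8.89 and 49.5 CPM). hbbe1.2 (+1.27 ± 0.26) and hbae1.3 (+0.93 ± 0.23) made up the other 2, and hbbe1.1, the most abundant, had 0.55 ± 0.26 (adjusted p = 0.14). The adult globin gene hbaa1, with no count in 4 controls, went from 0, 0.114 and 1.90 to 3.25, 12.5 and 17.6 CPM (+4.95 ± 0.80) without overlap. Of 23 tested genes of the erythroid and heme list, which holds hbaa1, 2 rose and 2 fell (median 0.03). rhag, a membrane protein of erythrocytes, was at 151, 182 and 250 against 98.1, 210 and 286 CPM (adjusted p = 0.95). The membrane skeleton gene ank1a fell (-0.77 ± 0.21) and hemgn fell (-0.97 ± 0.33), both not called with the covariate (adjusted p = 0.095 and 0.70). Without shallow larvae hemgn was not called either (adjusted p = 0.085). The membrane skeleton gene add2 was called higher (+0.64, adjusted p = 0.040), which leaving out any of 10 of the 16 larvae undid, and so did the covariate (adjusted p = 0.41) and leaving out shallow larvae (adjusted p = 0.20).

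Markers of neutrophils and macrophages fell in 6 of 29 and none rose (median -0.31). cd74a, the invariant chain of antigen presentation, was at 2.27, 4.33 and 6.96 against 0, 0.373 and 2.3 CPM (-2.64 ± 0.65), cd74b had -2.03 ± 0.56 and the granulin gene grn2 had -2.42 ± 0.67 with no count in 4 exposed larvae. cybb, the phagocyte oxidase, had 0.45 ± 0.27 (adjusted p = 0.25). Of 25 inflammation genes 1 rose and 1 fell (median -0.07, and 0.19 under total-count scaling): the chemokine gene cxcl8a (1.99, 5.94 and 13.8 against 5.52, 19.2 and 29.1 CPM, +1.33 ± 0.36) and the AP-1 gene junbb (-2.52 ± 0.74).

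**Figure D4:**
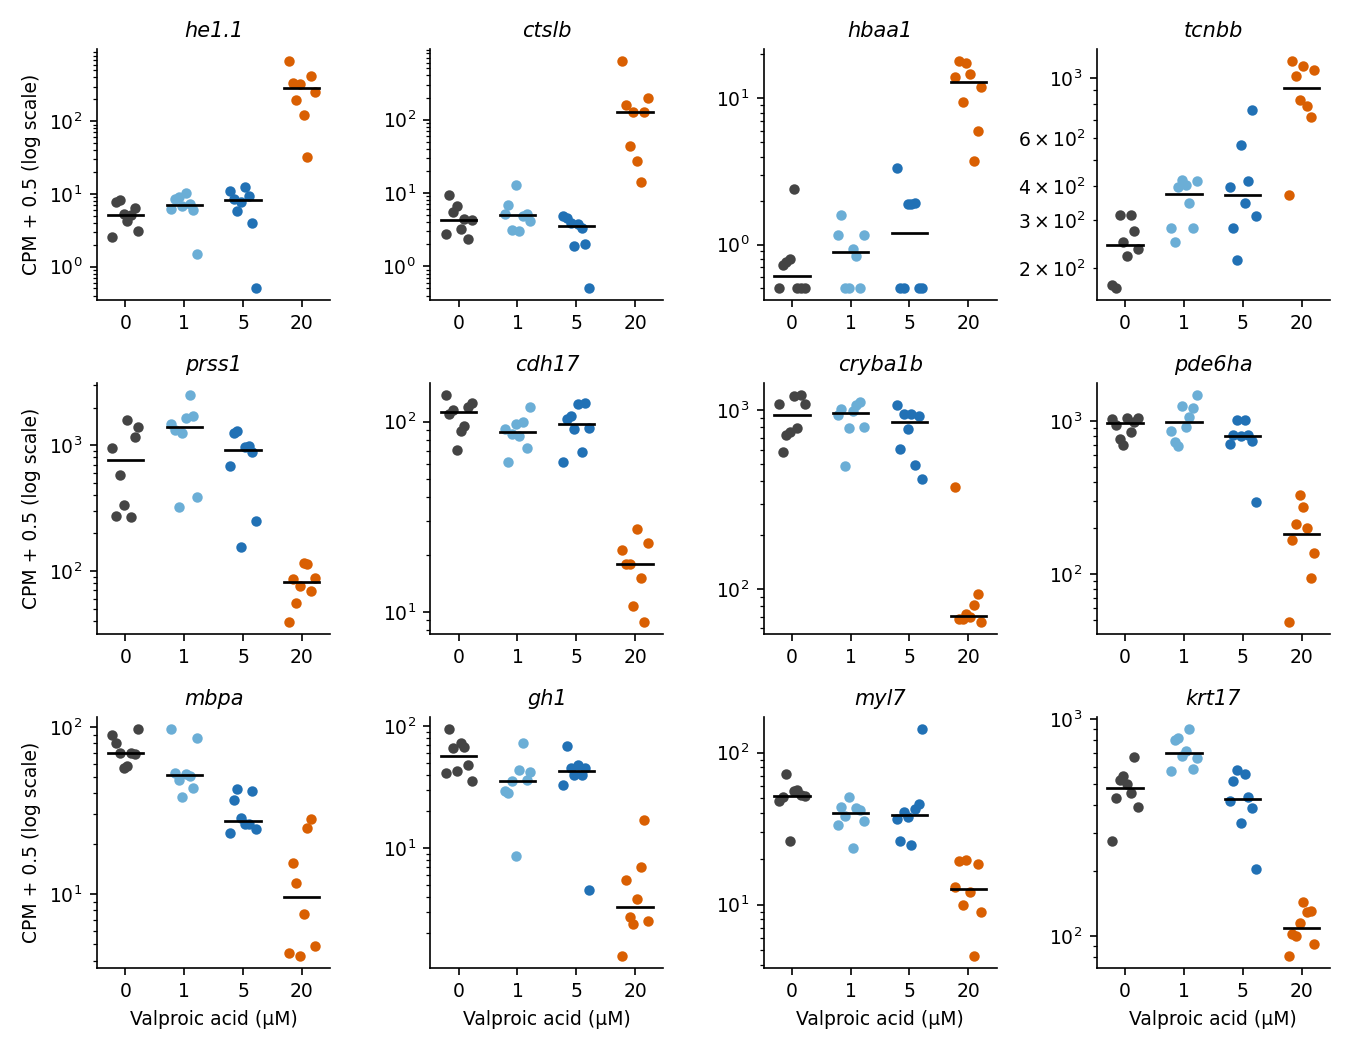
CPM plus 0.5 on a log axis for 12 genes in each of the 32 WIK larvae (points) at 0, 1, 5 and 20 µM of valproic acid, with the group median as a bar. The levels at 20 µM do not overlap those at 0 µM in any of the 12 genes, and those at 1 and 5 µM overlap the controls in all but mbpa at 5 µM.

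The growth hormone gene gh1 was at 35.0, 56.6 and 95.1 CPM at 0 µM and at 0.789, 2.77 and 16.6 CPM at 20 µM, 15.7-fold lower (-3.98 ± 0.41, adjusted p = 5.3e-10), with all 8 larvae below all controls. Of 8 tested genes of the pituitary list 2 rose and 1 fell (median 0.45), and with the covariate none rose. The nuclear receptor gene nr5a1a was among those that rose (+1.11 ± 0.35, adjusted p = 0.18 with the covariate and 0.085 without shallow larvae). pomca, the precursor of ACTH and melanocyte-stimulating hormone, was at 1.11, 4.13 and 11.2 against 0.337, 1.18 and 5.69 CPM (-1.54 ± 0.61, adjusted p = 0.072), and was called lower without 20 µM larva 6 (adjusted p = 0.034).

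Genes of the circadian clock, which larvae in a light cycle run in most cells, fell in 14 of 35 tested and rose in 2 (median -0.25). The genes that fell included 4 that repress the loop, nr1d2a (73.7, 133 and 194 against 30.4, 39.8 and 59.9 CPM, -1.68 ± 0.27), nr1d1 (-1.57 ± 0.25), per2 (-1.57 ± 0.25) and bhlhe40 (114, 135 and 168 against 40.7, 52.9 and 83.7 CPM, -1.16 ± 0.18). The 2 that rose, named after their values were seen, were the activator genes clockb (12.6, 16.0 and 26.7 against 22.5, 37.2 and 77.2 CPM, +1.16 ± 0.24) and arntl1b (+0.98 ± 0.29, not called with the covariate, adjusted p = 0.16, nor without 20 µM larva 6, adjusted p = 0.072). Without shallow larvae arntl1b was not called either (adjusted p = 0.085). tefa, the most abundant member, had -0.18 ± 0.19. The hour at which each larva was taken is not given in the labels.

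Heat shock genes were called lower in 25.9% and higher in 7.41%, against 11.0% and 7.54% over all genes tested. The endoplasmic reticulum stress list, with 12.8% lower and 7.69% higher, was near the shares over all genes. Of 39 genes of the endoplasmic reticulum (ER) stress list 5 fell and 3 rose (median -0.34): chac1, a target of the transcription factors that respond to unfolded proteins and to amino acid shortage, went from 71.2, 141 and 263 to 9.67, 31.7 and 53.3 CPM (4.47-fold lower, -2.16 ± 0.26) with no overlap. The ER chaperone gene hyou1 had -0.98 ± 0.24, and xbp1 had -0.88 ± 0.25 (not called without shallow larvae, adjusted p = 0.058). The sensor gene ern1 rose (+0.77 ± 0.21, adjusted p = 0.15 with the covariate), and hspa5 was not called (-0.75 ± 0.28, adjusted p = 0.053) except on leaving out single controls (adjusted p of 0.014 without control 5). Of 27 heat shock genes 7 fell and 2 rose (median -0.44), with 3 and 1 under the depth covariate. hsc70 was at 131, 216 and 273 against 34.7, 56.5 and 96.1 CPM (3.69-fold lower), and the abundant constitutive chaperone gene hspa8 was 1.77-fold lower, both without overlap. The heat shock factor gene hsf2 had -0.88 ± 0.24 (adjusted p = 0.38 with the covariate), and the small heat shock gene hspb1 rose (+0.74 ± 0.21).

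Antioxidant genes of the Nrf2 list fell in 11 of 38 and 1 rose (median -0.39), with 6 lower with the covariate. gpx1b, a glutathione peroxidase, was at 12.9, 25.9 and 53.1 against 0, 4.04 and 7.75 CPM (5.41-fold lower), gsto1 was 3.82-fold lower, the bile canaliculus transporter gene abcc2 2.28-fold lower and the mitochondrial peroxiredoxin gene prdx3 2.23-fold lower. gstp1, a widely used marker of Nrf2 in fish, was at 564, 839 and 1138 against 649, 715 and 1151 CPM (adjusted p = 0.76). Of 60 genes of drug metabolism 18 fell and 4 rose (median -0.50), with 9 and 1 under the covariate. The cytochrome P450 gene cyp3c3 dropped from 28.0, 86.5 and 205 to 1.87, 8.35 and 15.4 CPM (11.8-fold) and the sulfotransferase genes sult1st6 and sult1st3 were 4.93-fold and 7.09-fold lower, all without overlap. In contrast cyp2aa8 rose from 64.9, 103 and 172 to 171, 263 and 332 CPM (2.54-fold), with 7 of 8 larvae above all controls. gsta.1 had -0.15 ± 0.29.

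Few genes of cell division were called, with 2.63% higher and 1.32% lower against 7.54% and 11.0% over all genes tested. Of 76 genes of DNA replication and the cell cycle 2 rose and 1 fell (median 0.00, and 0.26 under total-count scaling), the cyclin gene ccna2 (+0.68), bub1bb (+0.65) and rpa2 (-0.96), and none of the 3 was called with the covariate or without shallow larvae (adjusted p of 0.065 to 0.19). Of 26 genes of the p53 list 3 fell and 1 rose (median -0.31). The share that fell, 11.5%, was near the 11.0% over all genes tested, and 3.85% rose against 7.54%. The stress-inducible genes gadd45ab (38.9, 56.4 and 87.2 against 8.12, 17.9 and 31.7 CPM, -1.70 ± 0.27) and gadd45ba (-1.27 ± 0.31) fell, and rps27l fell (-1.14 ± 0.33) with no larva below all controls. The caspase gene casp8 was called higher (+0.91 ± 0.29), and the call was lost with the covariate (adjusted p = 0.25), without shallow larvae (adjusted p = 0.19) and without 20 µM larva 7 (adjusted p = 0.067). The cyclin gene ccng1 had -0.42 ± 0.19 (adjusted p = 0.11). hmga1a, the most abundant of the cell cycle list, was at 290, 421 and 861 against 272, 392 and 1089 CPM. Of 22 genes of cholesterol synthesis 3 fell and 1 rose (median -0.22, and 0.03 under total-count scaling), with msmo1 at -1.66 ± 0.41, insig1 at -0.99 ± 0.29 and fdps at +0.55 ± 0.20, and no gene of this list was called with the covariate. Without shallow larvae fdps was not called either (adjusted p = 0.078). The shares of the cholesterol list, 13.6% lower and 4.55% higher, were near the 11.0% and 7.54% over all genes tested.

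Skin genes split by member, with 11 of 51 lower and 9 higher (median -0.15, and 0.11 under total-count scaling). krt17 went from 275, 480 and 665 to 80.3, 108 and 143 CPM (4.27-fold lower, -2.10 ± 0.18, adjusted p = 1.5e-11), the annexin gene anxa1b from 94.9, 134 and 175 to 13.1, 20.0 and 60.8 CPM (5.19-fold) and krt92 was 2.17-fold lower, all without overlap. krt93, with no count in 6 of 8 exposed larvae, had -3.31 ± 0.90 (adjusted p = 0.068 with the covariate). In the other direction the keratin gene cyt1l rose from 511, 975 and 1215 to 1800, 2951 and 3872 CPM (3.09-fold higher, +1.63 ± 0.21, adjusted p = 6.4e-08) with no overlap, and krt4, the most abundant of the list, had +0.42 ± 0.15 (adjusted p = 0.044), a call that leaving out any of 10 of the 16 larvae undid.

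Skeletal, matrix and pigment genes showed few calls. Of 39 cartilage and bone genes 3 fell and 1 rose (median -0.10, and 0.17 under total-count scaling), and of 43 collagen genes 2 fell and 1 rose (median 0.18). col10a1a, a collagen of hypertrophic cartilage and bone, fell from 238, 291 and 386 to 52.5, 117 and 208 CPM (2.53-fold, -1.34 ± 0.22) with no overlap, and the cartilage gene ucmaa had -1.74 ± 0.45. sparc (-0.33 ± 0.15, adjusted p = 0.13) and col1a1a (-0.22 ± 0.15, adjusted p = 0.32) were not called, and col18a1a (-0.70 ± 0.24) was not called with the covariate (adjusted p = 0.13) or without shallow larvae (adjusted p = 0.093). Of 18 pigment genes paics, an enzyme of purine synthesis that pigment cells use, rose from 105, 127 and 184 to 134, 441 and 636 CPM (3.1-fold higher, +1.63 ± 0.26), with 7 of 8 larvae above all controls, and gpnmb fell (-0.61 ± 0.20). The median of the pigment list was -0.08, and 0.18 under total-count scaling. Of 36 hox genes, which set position along the body axis, 2 rose and none fell (median -0.01): hoxb6b (3.55, 7.83 and 17.1 against 5.69, 23.7 and 40.7 CPM, +1.33 ± 0.35) and hoxb9a (+0.75 ± 0.24, adjusted p = 0.077 without shallow larvae and 0.075 with the covariate). The share of hox genes that rose, 5.56%, was near the 7.54% over all genes tested.

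Among the 12 largest increases without overlap that have a gene name and were not described above were tcnbb, which encodes a protein that binds vitamin B12 (168, 242 and 315 against 370, 921 and 1158 CPM, 3.62-fold higher, +1.86 ± 0.21), gna15.1, a G protein subunit (+1.68 ± 0.33), the syntaxin gene stx2a (+1.33 ± 0.28) and the thymosin beta gene tmsb (87.2, 157 and 226 against 336, 384 and 494 CPM, +1.31 ± 0.16). Larva 1 at 20 µM lay nearest to the controls in tcnbb, at 370 CPM, where the other 7 were between 718 and 1158. In cel.1 and fabp10a, which fell, larva 1 was the lowest at 20 µM. It was at 5.13 CPM in cel.1 (22.9 to 67.7 in the other 7) and 22.3 CPM in fabp10a (127 to 366). Of these 12 increases 3 were clone-named genes, and of the 12 largest decreases 7 were.

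The lower doses were tested in the same fit and share their controls with 20 µM. At 5 µM 4 of 16613 genes were called (0.0241%, with 2553 at an unadjusted p under 0.05) and at 1 µM 1 gene (0.00602%, with 1988). The gene called at each dose was cep128, which encodes a centrosomal protein, with 18, 30.6 and 42.4 CPM at 0 µM, 36.0, 67.6 and 95.8 at 1 µM, 45.7, 64.1 and 102 at 5 µM and 56.0, 69.5 and 107 at 20 µM. Its log2 fold changes were 1.17, 1.26 and 1.28, with ranges that overlapped between the 3 doses. Without larvae under 0.5 times the median total 19 genes were called at 5 µM. The other 3 genes called at 5 µM were the adenylate cyclase gene adcy7 (+1.16), the RNA-binding protein gene serbp1a (-0.72) and the clone-named si:ch211-173a9.6 (-1.62), and all 4 were called at 20 µM in the same direction. The number of genes without overlap was 14 higher and 23 lower at 5 µM and 11 higher and 8 lower at 1 µM, against 63 and 517 at 20 µM.

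Medians of some genes are given here by dose, and no test compared their course between genes. Medians of he1.1 were 4.69, 6.60 and 7.64 CPM at 0, 1 and 5 µM before 290 at 20 µM, those of cryba1b 936, 962 and 853 before 70.1, and those of prss1 768, 1398 and 925 before 80.5. For mbpa they were 69.3, 51.1, 26.9 and 9.16 CPM, with all 8 larvae at 5 µM (22.8 to 41.9 CPM) below all controls (56.0 to 96.4 CPM). Its change at 5 µM, -1.24 ± 0.27, had an adjusted p of 0.070 and did not pass the threshold. tcnbb had medians of 242, 373, 371 and 921 CPM, with ranges at 1 and 5 µM that overlapped the controls.

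The change at 20 µM in WIK was set against the mean change in AB, TU, RW and PET in a fit over all 160 larvae. Of 21073 genes tested 336 differed (1.59%), 208 with a more positive change in WIK (0.987%) and 128 with a more negative one (0.607%), and the split was 127 and 132 with the size factors of DESeq2. Of the 128, 98 were called lower in WIK and none higher, and of the 208, 174 were called higher in WIK and 14 lower. The number moved with the setting, to 66 genes with the depth covariate and 74 without shallow larvae, where 27636 genes were tested. It was 836, 91, 73 and 667 without AB, TU, RW and PET in turn. In the same fit 1197 genes rose and 1363 fell in WIK, 278 and 945 in AB, 789 and 674 in TU, 477 and 929 in RW and 266 and 1161 in PET. Depth differed between strains. Median totals at 0 and 20 µM were 4.08e+06 and 1.97e+06 counts in WIK and 2.58e+06 and 1.56e+06 in AB. In TU they were 1.58e+06 and 1.97e+06, in RW 4.54e+06 and 6.88e+06 and in PET 1.56e+06 and 1.02e+06. The part of depth in the counts by strain was not tested. Levels in this part are CPM scaled over the 160 larvae.

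Exocrine pancreas genes fell less in WIK than in the other strains where they differed. Of 33 tested in this fit 8 differed, each with the smaller decrease in WIK, and all 8 were called lower in each of the 5 strains. pla2g1b, a pancreatic phospholipase, changed by -1.01 in WIK and by -3.31, -2.93, -4.22 and -3.55 in AB, TU, RW and PET (difference +2.49 ± 0.38, adjusted p = 7.0e-06). Its call within WIK was lost with the depth covariate (adjusted p = 0.33). At 20 µM its medians were 16.9 CPM in WIK and 6.19 to 16.8 CPM in the other strains, and at 0 µM the WIK larvae, at 14.4, 33.9 and 61.9 CPM, lay below all larvae of AB, RW and PET. For cel.1, a lipase that needs bile salts, the change was -2.06 in WIK and -3.96 to -4.21 elsewhere, and for prss1 -3.33 against -4.45 to -4.86. The prss1 controls of WIK, at 282, 804 and 1664 CPM, reached lower than those of the other strains, whose lowest larvae were at 839 to 1187 CPM. ctrb1 (+1.65 ± 0.36), ela2l (+1.79 ± 0.42), cela1.6 (+1.63 ± 0.37), cpa1 (+1.75 ± 0.50) and prss59.2 (+1.4 ± 0.33) had differences of the same sign. Only that of pla2g1b was called under all 10 alternatives to this fit. For fabp10a of the liver the difference had the same sign and was called under all 10 (-1.70 in WIK against -3.32 to -4.46, difference +2.12 ± 0.40).

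Other genes with a more positive change in WIK were serpina7, which encodes a thyroid hormone carrier (difference +3.72 ± 0.86), and crp2, of the C-reactive protein family (+3.51 ± 0.78), both with adjusted p over 0.05 at 20 µM within WIK. The values of serpina7 in WIK rested on 1 larva, since the exposed larvae had a median of 0.111 CPM and a highest value of 18.7 CPM. Without 20 µM larva 5 its change within WIK went from -1.08 (adjusted p = 0.36) to -3.26 (adjusted p = 0.0052), and the difference from the other strains was not computed without that larva. The difference was not called without shallow larvae (+4.43, adjusted p = 0.073). crp2 in WIK was at 0.951, 22.8 and 101.7 CPM at 0 µM and at 2.44, 18.7 and 247 CPM at 20 µM, and in RW at 5.63, 163 and 463 and then at 1.91, 4.48 and 11.0 CPM. The difference for crp2 was not called without RW (+2.7, adjusted p = 0.057). cep128 (+1.22 ± 0.29), adcy7, clockb, arntl1b, gna15.1 and stx2a had more positive changes in WIK than in the mean of the others, and of these only cep128 was called without TU and without RW.

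Among differences of the opposite sign was that of kars1, which encodes lysyl-tRNA synthetase. In WIK it went from 114, 317 and 922 CPM to 45.7, 85.2 and 105 CPM (-2.18), and its changes in AB, TU, RW and PET were -0.22, 0.99, 0.20 and -0.08 (difference -2.4 ± 0.34, adjusted p = 4.9e-07, called under all 10 alternatives). The medians at 20 µM were 85.2 CPM in WIK and 47.2 to 154 CPM in the others, while those at 0 µM were 317 CPM in WIK and 47.9 to 133 CPM in the others. tars1 (-1.49 ± 0.33) and yars1 (-1.63 ± 0.34), of the same family of enzymes that load amino acids onto transfer RNA, and aars1 (-1.14 ± 0.28) and eprs1 (-1.70 ± 0.42) differed in the same direction. Within WIK the calls of tars1, aars1 and eprs1 were lost with the depth covariate (adjusted p = 0.11, 0.11 and 0.21) and without shallow larvae (adjusted p = 0.073, 0.098 and 0.061). psat1 and phgdh, which make serine, rose in AB (1.61 and 1.66), TU (1.27 and 1.12) and RW (1.42 and 1.86) and were not called in WIK (-0.41 and 0.16), with differences of -1.67 ± 0.36 and -1.34 ± 0.34. In PET phgdh rose (1.38, adjusted p = 0.0020) and psat1 was not called (0.73, adjusted p = 0.22). Medians of psat1 at 0 µM were 67.5 CPM in WIK and 17.1 to 26.6 CPM in the others. At 20 µM they were 62.1 CPM in WIK and 33.6 to 61.7 CPM in the others. For phgdh they were 36.7 CPM in WIK and 12.4 to 22.2 CPM in the others at 0 µM, and 44.0 and 29.5 to 87.5 CPM at 20 µM. Of the genes named in this paragraph only kars1, tars1 and psat1 were called under all 10 alternatives.

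**Figure D5:**
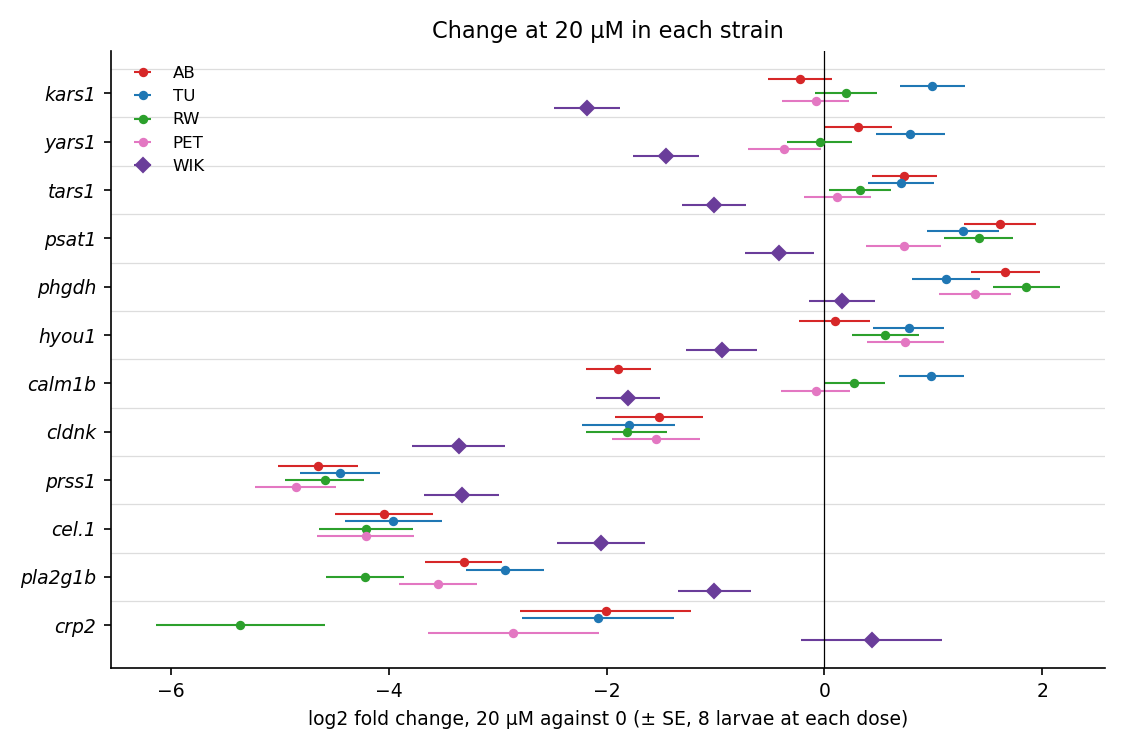
log2 fold change at 20 µM against 0 for 12 genes in each strain, from the fit over 160 larvae (points, with bars of 1 SE, 8 larvae at each dose), WIK as purple diamonds. WIK had the lowest value for kars1, yars1, tars1, psat1, phgdh, hyou1 and cldnk, and the smallest decrease for prss1, cel.1 and pla2g1b, while calm1b was at -1.80 in WIK and -1.89 in AB.

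The growth factor binding protein gene igfbp1a (-2.07 ± 0.41), the lipid kinase gene pip5k1ba (-2.45 ± 0.58), junbb (-3.26 ± 0.90), nppc (-2.05 ± 0.59) and calm1b (-1.63 ± 0.33) also changed more negatively in WIK. For calm1b the change in AB, -1.89, stood beside -1.80 in WIK, with 0.98, 0.27 and -0.08 in TU, RW and PET. The ER genes hyou1, hspa5 and xbp1 had differences of -1.49 ± 0.36, -1.35 ± 0.35 and -1.12 ± 0.29. In TU and RW hspa5 rose (1.07 and 1.27), while hyou1 had 0.77 and 0.56 and was not called. The median of hyou1 at 0 µM was 41.5 CPM in WIK and 6.96 to 26.3 CPM in the others. At 20 µM it was 19.4 CPM in WIK and 17.4 to 44.6 CPM in the others. Among muscle genes ckma (-0.94 ± 0.22), mylpfa (-1.01 ± 0.26), ttn.2 (-0.96 ± 0.25) and myh11a (-1.32 ± 0.36) had more negative changes in WIK, and 7 of the 8 fast muscle genes that differed did so in this direction. The same sign was found for cldnk (-1.69 ± 0.47), cdh17 (-1.22 ± 0.35), col10a1a (-0.86 ± 0.23), per2 (-1.15 ± 0.31), apof (-1.11 ± 0.29), rps27l (-1.11 ± 0.32) and si:ch211-173a9.6 (-1.52 ± 0.39). For col10a1a the change in AB, -1.10, stood beside -1.30 in WIK, with -0.16, -0.23 and -0.27 in TU, RW and PET. Each gene named in this paragraph lost the call of its difference under at least 1 alternative.

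Some calls at 20 µM rested on single larvae. Of the 179 named genes that were called, 26 lost the call when 1 of the 16 larvae was left out, and the larva whose absence gave the highest adjusted p is given here with that p. Each kept its sign in every such fit. A single larva decided the call of arntl1b (20 µM larva 6, 0.072), casp8 (20 µM larva 7, 0.067), insig1 (control 8, 0.062), nr5a1a (20 µM larva 6, 0.052), rpa2 (20 µM larva 6, 0.055), tars1 (control 4, 0.051). Any of several larvae undid the call of h1m (control 1, 0.063), dla (control 6, 0.061), hoxb9a (control 7, 0.055), aars1 (20 µM larva 6, 0.079), eprs1 (control 2, 0.082), glula (control 2, 0.1), gpnmb (20 µM larva 8, 0.069), col18a1a (control 1, 0.096), hemgn (control 1, 0.078), sox11a (20 µM larva 1, 0.075), ascl1b (20 µM larva 3, 0.099), ccna2 (control 3, 0.093), h3f3c (20 µM larva 6, 0.15), macroh2a2 (20 µM larva 6, 0.14), notch3 (20 µM larva 6, 0.066), pla2g1b (control 7, 0.089), add2 (control 1, 0.088), krt4 (20 µM larva 5, 0.083), notch1a (20 µM larva 3, 0.15), fdps (20 µM larva 4, 0.086). These 26 calls are near the threshold, with adjusted p between 0.012 and 0.049 with all larvae.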

How the data were processed

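Single whole larvae were measured by 3′ RNA sequencing. The authors deposited 1 table of estimated counts for 31658 genes in 340 larvae, with GRCz11 and Seurat 5.1.0 in the submitters' processing notes; the mapper and counter are not given in the sources used here. RNA of each larva was diluted to the same concentration, indexed at reverse transcription and pooled, so totals also carry the pooling. Of the values 52 were not whole (4 in WIK larvae) and were rounded, and 304 genes had no count. The design had foreseen whole counts, and the same test was kept.

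Genes were kept by filterByExpr (minimum count 10, minimum total count 15), scaled by TMM and tested with the quasi-likelihood test of edgeR 4.0.16 (R 4.3.3) over the 32 WIK larvae, with each dose as a group, or over 160 larvae, with each pair of strain and dose as a group, for the difference between strains. P-values were adjusted by Benjamini-Hochberg over all genes tested (threshold 0.05). They measure the spread between larvae of 1 exposure. Depth per larva is given with the results and limits the precision at 20 µM. Alternatives used DESeq2 1.42.0, limma 3.58.1, other scalings and filters, depth corrections, a replicate block and left-out larvae or strains. The code was tested on simulated data.

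The gene lists and tests were chosen with earlier results of these data known. Named genes were the 12 largest changes in each direction without overlap and with a mean count of at least 10, the 5 smallest p in each direction, up to 4 members of each list with the smallest p and its most abundant one, and the 6 largest differences between strains in each direction. Clone-named genes are named only where a count needs them. A further 25 genes (such as notch1a, c4b, clockb, ckma and ctrb1) and the aminoacyl-tRNA synthetase list were chosen after their values were seen. Gene names are those of the table, and zgc:112160 and zgc:92137 were matched to ctrb.3 and amy2al2 by the synonyms of RefSeq's GRCz12tu table, used for names only. A result that this rule would name is not reported here.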

Additional observations from a re-analysis of the deposited data

Results flagged for a closer look

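In each group of 8 WIK larvae, the gap between the highest or lowest larva and its neighbour was divided by the range of the group, on the log2 CPM scale for genes and the log10 scale for totals, and larvae past Dixon's 95% critical value are given here. Of 456 groups 42 (9.21%) held such a larva, where chance gives about 1 in 20. The library of larva 8 at 5 µM stood apart in its total (ratio 0.809) and in its number of detected genes (0.771).

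At 20 µM the lowest larva stood apart, with the ratio in brackets, in zgc:92137 (0.636), chga (0.529), hemgn (0.627), cldnk (0.690), hdac9b (0.656), rpa2 (0.545), gpx1b (0.601), myh7l (0.664), hoxb9a (0.578), rpl38 (0.544), tcnbb (0.581), sox11a (0.587), hbbe1.2 (0.660), cel.1 (0.572) and fabp10a (0.620). In zgc:92137, hemgn, cldnk, rpa2, gpx1b and sox11a this was larva 7, the shallowest at 20 µM with 614766 counts. In tcnbb, cel.1 and fabp10a it was larva 1. The highest larva at 20 µM stood apart in cryba1b (0.793), cryba4 (0.625), rbp4 (0.533), phgdh (0.586, larva 7) and krt93 (0.553). Among controls the lowest larva stood apart in pcsk1nl (0.539), neurod1 (0.633), hbae1.1 (0.556), mbpb (0.534), gabarapb (0.626), myl7 (0.593) and myh11a (0.609). The highest control did so in ins (0.535), hbaa1 (0.704), slc32a1 (0.691), anpepb (0.609) and gsto1 (0.566). At 1 µM the lowest larva stood apart in he1.1 (0.714), cryba1b (0.583) and gh1 (0.555). At 5 µM it was larva 8, with 189169 counts, that stood apart in each case. It was the lowest for he1.1 (0.644), ctslb (0.584), pde6ha (0.702) and gh1 (0.732), with no count of he1.1 and ctslb. For myl7 (0.648) it was the highest.

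The change at 20 µM differed between WIK and the mean of AB, TU, RW and PET for 43 of the named genes (edgeR's quasi-likelihood test of the difference, adjusted over 21073 genes). The log2 difference was positive for serpina7 (3.72), crp2 (3.51), pla2g1b (2.49), fabp10a (2.12), cel.1 (2.05), ela2l (1.79), cpa1 (1.75), ctrb1 (1.65), cela1.6 (1.63), prss59.2 (1.4), gna15.1 (1.38), prss1 (1.31), cep128 (1.22), clockb (1.17), arntl1b (1.14), stx2a (1.08) and adcy7 (0.913). For serpina7 the change within WIK rested on 20 µM larva 5 (-1.08 with it, -3.26 without it). The difference was negative for junbb (-3.26), pip5k1ba (-2.45), kars1 (-2.40), igfbp1a (-2.07), nppc (-2.05), eprs1 (-1.70), cldnk (-1.69), psat1 (-1.67), yars1 (-1.63), calm1b (-1.63), si:ch211-173a9.6 (-1.52), tars1 (-1.49), hyou1 (-1.49), hspa5 (-1.35), phgdh (-1.34), myh11a (-1.32), cdh17 (-1.22), per2 (-1.15), aars1 (-1.14), xbp1 (-1.12), rps27l (-1.11), apof (-1.11), mylpfa (-1.01), ttn.2 (-0.96), ckma (-0.94) and col10a1a (-0.86). Of the 43, 5 were called under every alternative that was run: fabp10a, kars1, pla2g1b, psat1 and tars1.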

How the results depend on the processing

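Counts of genes called at 20 µM in WIK larvae moved with the fold change tested against, depth and scaling. Against 1252 higher and 1822 lower genes, scaling by total count gave 2756 and 1150, the log10 total as a covariate 400 and 965 (1365 in all), leaving out larvae under 0.5 times the median total 698 higher, thinning to 500000 counts 1166 lower, DESeq2's Wald test 2004 higher, and a test against a log2 fold change of 1 14 and 271 (285 in all). Leaving out 1 larva at a time gave 2419 to 3386 genes, 883 to 1537 higher and 1410 to 1962 lower, with the fewest in all without 20 µM larva 6. At 5 µM 25 genes were called with no filter on low counts, 2 with the covariate and 19 without shallow larvae, and at 1 µM 4 with no filter. The difference between WIK and the other strains was called for 66 genes with the covariate, 74 without shallow larvae, 155 after thinning to 300000 counts, and 836, 91, 73 and 667 without AB, TU, RW and PET in turn. The difference in detected genes, -1097, became 480.9 after thinning and -1654 at a minimum of 5 counts, and ran from -1408 to -633 without 1 larva. The log10 total difference ran from -0.399 to -0.274. Apart from the construction of each alternative, which changes the larvae or the scale, the cause was not tested.

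Little pairing of the groups by larva number was seen, and it was not tested. Same-numbered larvae at 0 and 20 µM had correlations of their deviations between -0.0803 and 0.193, 1 of 8 over 0.1. With the larva number as a replicate block 1175 genes were higher and 1816 lower at 20 µM, 4 were called at 5 µM, 358 differed between strains, and at 1 µM none (0) was called by edgeR, with 1995 at an unadjusted p under 0.05. Of the 8 controls, 3 were closest to the 20 µM larva of their own number.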

Other observations

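The aminoacyl-tRNA synthetases, the enzymes that load amino acids onto transfer RNA, were gathered as a list after the values of kars1, tars1 and yars1 had been seen, and are described with no test of the list. Of 21 genes 19 were tested. In WIK 9 were lower and none higher at 20 µM, with a median log2 fold change of -0.85 and 16 of 19 below 0, and 4 were lower with the depth covariate, 5 without shallow larvae and 4 under total-count scaling. The medians in the fit over 160 larvae were 0.38 in AB, 0.70 in TU, 0.28 in RW and -0.14 in PET, with 1, 5, 0 and 0 genes called higher and 0, 0, 0 and 1 lower. Among those lower in WIK was sars1, at 11.7, 22.4 and 52.0 CPM at 0 µM and 5.36, 10.4 and 20.7 at 20 µM (lowest, median and highest, -1.29 ± 0.35, edgeR's adjusted p = 0.0070, and 0.094 with the depth covariate).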
